A study of Homo sapiens with 9 samples.

Results

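The liver X receptors and the genes they are best known to switch on for the export of cholesterol were examined as 6 genes among the 31558 of the deposited count table. They were chosen by symbol alone: NR1H2 (ENSG00000131408.13, LXR beta) and NR1H3 (ENSG00000025434.18, LXR alpha), the transporters ABCA1 (ENSG00000165029.15) and ABCG1 (ENSG00000160179.18), the ubiquitin ligase MYLIP (ENSG00000007944.14, also called IDOL) and apolipoprotein E, APOE (ENSG00000130203.9). All 6 were listed in both deposited tables, and all 6 had enough reads to be tested in every comparison.

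The cells were HCT116, an epithelial human colorectal cancer line, in 3 groups of 3 biological replicates. CRLM1-OE cells overexpressed the long noncoding RNA CRLM1, Ctrl cells carried the empty plasmid, and CRLM1-anti cells carried the plasmid with the antisense sequence of CRLM1. The paper calls the cells of this RNA-seq transfected. For stable expression, per the methods, CRLM1 was expressed from a lentiviral vector named for GFP and puromycin resistance, and puromycin selected the transduced cells. Whether the control cells shared that vector and selection, and whether the cells of a group grew from 1 clone, was not stated. No sterol, serum or LXR ligand treatment was given as a difference between the groups.

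Total counts per sample ran from 33302292 to 44514692, so that 3 counts, taken as the smallest signal, corresponded to 0.0674 to 0.0901 CPM (counts scaled to the library total). The check of the labels, CRLM1 itself (RP4-710M16.2), had 32751 to 38704 counts in CRLM1-OE, 0 in each Ctrl sample and 1540 to 1951 in CRLM1-anti, where the strand of the reads was not recorded. Of 8 epithelial markers 5 reached a mean of 1 FPKM (fragments scaled for exon length and library size), with a summed level of 1804 to 1835 FPKM in CRLM1-OE, 2282 to 2324 in Ctrl and 2282 to 2311 in CRLM1-anti. The members are better known from macrophages and liver, and the defining marker of blood-derived cells, PTPRC, was at most 0.01 FPKM in any sample.

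LXRs are nuclear receptors that sit on DNA as heterodimers with a retinoid X receptor (RXR). Oxysterols, made when a cell holds more cholesterol than it needs, bind them, and corepressors are then exchanged for coactivators at target genes. The best-known targets move cholesterol out: ABCA1 loads it onto lipid-poor apolipoprotein A-I, ABCG1 passes it to HDL particles, and APOE carries it in the particles that cells secrete. MYLIP acts on uptake, because it marks lipoprotein receptors for degradation. SREBP2, the opposite arm, raises synthesis and uptake when sterols are scarce. NR1H2 is found in most tissues, whereas NR1H3 is highest in liver, intestine, adipose tissue and macrophages.

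On GRCh38 with GENCODE version 44, NR1H2 lies on the forward strand at chr19:50329653-50383388 and NR1H3 on the forward strand at chr11:47248300-47269033. ABCA1 lies on the reverse strand at chr9:104781006-104928155, ABCG1 on the forward strand at chr21:42199689-42297244, MYLIP on the forward strand at chr6:16129086-16148248 and APOE on the forward strand at chr19:44905791-44909393. Counting was not stated to use strand, so reads where exons of opposite genes overlap cannot be told apart. Exons of NR1H2 shared 1182 bp with NAPSA, which had 16 to 57 counts per sample, and exons of NR1H3 shared 189 bp with ACP2, which had 218 to 553. APOE shared 19 bp with ENSG00000280087, a gene of 2 to 6 counts, and the exons of ABCA1, ABCG1 and MYLIP overlapped no other gene's exons.

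The DNA element that LXR and RXR bind is a direct repeat, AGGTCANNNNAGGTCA, in which N is any letter. It was searched on both strands of the RefSeq promoter windows (GRCh38.p14), which run from 250 bases before each start to 50 bases after it. Windows were found for 5 of the 6 members, all but ABCG1. The closest stretch for each member is given 5′ to 3′ on the strand that carries the repeat, with capitals marking letters equal to it among the 12 that are scored, so that the reader can see how near each start comes to the element. Where several stretches or windows of a gene tied, the first is shown.
NR1H2: gGcTCAgagaAGcgCA
NR1H3: AtGTCttcactGGTgA
ABCA1: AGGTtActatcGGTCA
MYLIP: cGGcCAgggaAacTCA
APOE: tGGTCAaaagAccTCt

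The ABCA1 stretch had 2 mismatches, and 2.34% of the 35116 windows searched held a stretch with at most 2. The other members had 4 mismatches at best, which 72.5% of windows reached. It lies 69 to 54 bases before the start of ABCA1, at chr9:104928209-104928224, and reads as the repeat on the antisense strand. Because ABCA1 alone came this near the element, the 250 bases before its start are given in the direction of the gene (reverse strand, chr9:104928156-104928405), with the same stretch in capitals as it reads there.
ABCA1 upstream: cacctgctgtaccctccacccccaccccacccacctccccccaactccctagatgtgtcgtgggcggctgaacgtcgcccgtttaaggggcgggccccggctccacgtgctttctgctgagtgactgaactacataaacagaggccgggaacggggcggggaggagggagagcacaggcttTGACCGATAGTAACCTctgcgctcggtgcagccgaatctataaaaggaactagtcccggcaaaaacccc

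The stretches shown for the rest lie 223 to 208 bases before the RefSeq start of NR1H2, 203 to 188 before NR1H3 (the first of 4 windows), 167 to 152 before MYLIP and 173 to 158 before APOE (the first of 3 windows). The NR1H2 window, chr19:50376207-50376506, lies inside the gene's GENCODE span, which begins further upstream. Windows 3 and 4 of NR1H3 and windows 2 and 3 of APOE also had 4 mismatches at best. A single exact AGGTCA was present only in window 1 of NR1H3 among the members' windows, and in 13.8% of all windows. These matches describe letters and show no binding, since no binding data were analysed here.

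Levels between genes were compared as FPKM. NR1H2 was the most abundant member in each group, with a mean of 22.9 ± 0.316 FPKM (SD, n = 3) in Ctrl, above 87.9% of the 16962 protein-coding genes listed. NR1H3 came next, at 4.30 ± 0.456, above 62.0%. APOE (2.03 ± 0.138) and MYLIP (1.79 ± 0.0764) stood lower and touched in Ctrl, where both had a sample at 1.87 FPKM. ABCG1 followed at 0.643 ± 0.0651 and ABCA1 was last at 0.133 ± 0.0153 FPKM, above 25.2% of protein-coding genes. The same order held in CRLM1-OE with no overlap between neighbours, and in CRLM1-anti MYLIP (2.30 ± 0.25) and APOE (1.80 ± 0.248) overlapped and changed places. HCT116 held mRNA of LXR beta at several times the level of LXR alpha, and both efflux transporters were below 1 FPKM in every sample.

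**Figure D1:**
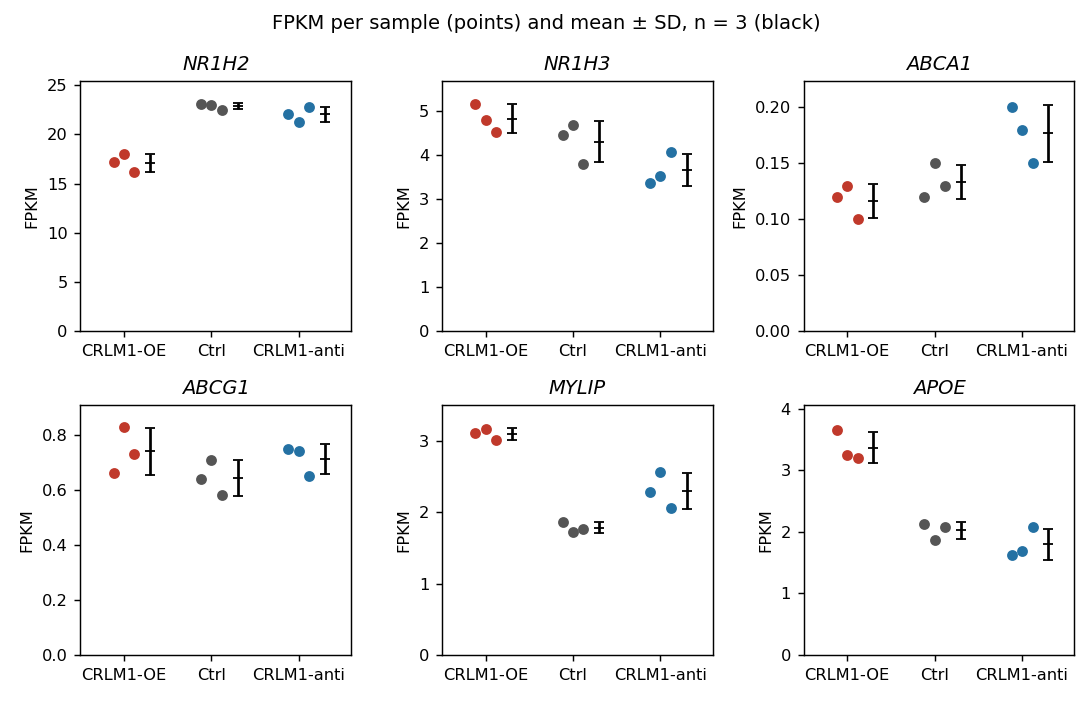
FPKM of the 6 members in each sample (points) with the mean and SD (black, n = 3), by group, each panel on its own linear axis from 0. CRLM1-OE lies apart from both control groups for NR1H2 (lower) and for MYLIP and APOE (higher), while ABCG1 overlaps in all groups.

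Differences between groups were tested on counts with edgeR's quasi-likelihood test after TMM scaling, with Benjamini-Hochberg adjustment over every gene tested, and a gene passed at an adjusted p of at most 0.05. The study's own rule also asks for a 2-fold change. FPKM follows each library's total rather than TMM. Over genes averaging 50 counts or more, the median log2 fold change was -0.035 with TMM and 0.11 with total counts for CRLM1-OE against Ctrl, -0.031 and 0.028 for CRLM1-OE against CRLM1-anti, and -0.0023 and 0.1 for CRLM1-anti against Ctrl.

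Against Ctrl, 2 of the 6 members rose in CRLM1-OE (MYLIP and APOE), where 15.0% of the 29846 genes tested did, and 1 fell (NR1H2), where 16.8% did. No member reached 2-fold, which 3.41% of genes passed in either direction. For 3 of 6 members the groups did not overlap in log2 CPM, beside 37.5% of genes. The shares over all genes tested, here and below, include genes with few counts. Of the 29846 genes 12928 averaged 50 counts or more, and every member had at least 50 in each sample. The shares among genes of like level were not computed, so the members cannot be ranked against them. The median log2 fold change over the members was 0.068, and 0.017 over all genes tested.

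Against CRLM1-anti, 3 members rose (NR1H3, MYLIP and APOE), beside 17.1% of the 30183 genes tested, and 2 fell (NR1H2 and ABCA1), beside 18.5%. Again no member reached 2-fold, beside 5.65% of genes, and the groups of 5 of 6 members did not overlap, beside 41.0%. The members' median was 0.18, and -0.023 over all genes tested. With 6 genes these counts describe the members and were not tested as a set. The 2 comparisons share the CRLM1-OE samples, so their values are not independent of each other.

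Between the controls, CRLM1-anti against Ctrl, 1 member was higher (MYLIP), beside 11.5% of the 29714 genes tested, and 2 were lower (NR1H2 and NR1H3), beside 12.2%. None reached 2-fold, beside 1.06% of genes, and the groups of 2 members did not overlap, beside 31.0%. The members' median was -0.044, and 0.0047 over all genes tested. The controls therefore differed from each other in 3 members, and the values of these 3 are given for both controls throughout.

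**Figure D2:**
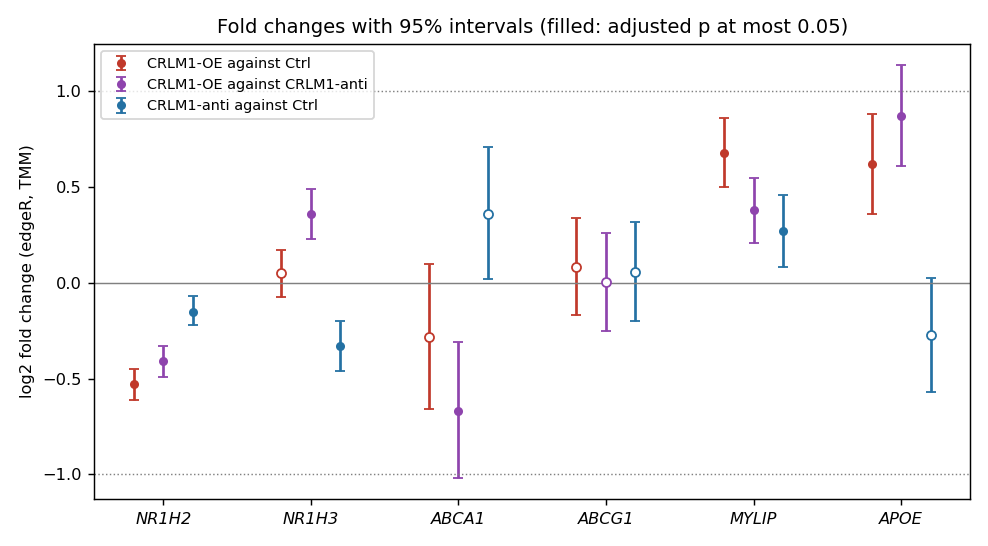
Log2 fold change of each member in the 3 comparisons (edgeR with TMM, bars are 95% intervals, filled points have an adjusted p of at most 0.05, dotted lines mark 2-fold). NR1H2 lies below 0, MYLIP and APOE lie above 0 in both CRLM1-OE comparisons, and no point passes the dotted lines.

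The receptors were taken first. NR1H2, the receptor present in most tissues, had 17.24, 17.97 and 16.17 FPKM in the 3 CRLM1-OE samples. It had 23.14, 22.98 and 22.53 FPKM in Ctrl and 22.11, 21.23 and 22.79 in CRLM1-anti. Every CRLM1-OE sample lay below every control sample, and the lowest control value exceeded the highest CRLM1-OE value. NR1H2 fell against Ctrl by 0.53 on the log2 scale (SE 0.041, edgeR adjusted p = 6.5e-37) and against CRLM1-anti too (log2 fold change -0.41, SE 0.041, edgeR adjusted p = 5e-23). Both falls passed under all 14 alternatives tried for each comparison. The largest adjusted p among these, from limma on FPKM with 1 added before the logarithm, was 0.00057 against Ctrl and 0.0012 against CRLM1-anti. Between the controls NR1H2 was lower in CRLM1-anti by a log2 fold change of -0.15 (SE 0.039, edgeR adjusted p = 0.0011), which passed under 11 of 14 alternatives and not with total counts (-0.041, adjusted p = 0.55) or limma on FPKM (0.30), and the controls did not overlap in log2 CPM but did in FPKM. In bulk RNA, fewer cells expressing a gene and less RNA per cell cannot be told apart, here and for every value that follows.

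NR1H3 had 5.16, 4.8 and 4.51 FPKM in CRLM1-OE, 4.44, 4.67 and 3.79 in Ctrl, and 3.37, 3.52 and 4.07 in CRLM1-anti. CRLM1-OE overlapped with Ctrl but not with CRLM1-anti. Against Ctrl the log2 fold change was 0.051 (SE 0.063, edgeR adjusted p = 0.56), with a 95% interval of -0.072 to 0.17, and with total counts it was 0.19 and passed (adjusted p = 0.0087). Against CRLM1-anti it rose by 0.36 (SE 0.065, edgeR adjusted p = 1.6e-07), a 1.28-fold change that passed under all 14 alternatives. Between the controls NR1H3 was lower in CRLM1-anti than in Ctrl, by a log2 fold change of -0.33 (SE 0.068, edgeR adjusted p = 9.5e-06). The 2 control groups overlapped in this gene, and the difference did not pass with limma on FPKM (adjusted p = 0.18 with 0.1 added before the logarithm and 0.20 with 1 added).

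The balance of the receptors was taken as the NR1H3 share of their summed FPKM. The share was 23.0, 21.1 and 21.8% in CRLM1-OE, 16.1, 16.9 and 14.4% in Ctrl, and 13.2, 14.2 and 15.2% in CRLM1-anti. The means were 22.0 ± 0.988%, 15.8 ± 1.27% and 14.2 ± 0.963% (SD, n = 3). CRLM1-OE exceeded Ctrl by 6.18 percentage points and CRLM1-anti by 7.77 (two-sided exact permutation test, p = 0.1 for each, the smallest p that 3 samples against 3 can give). The controls overlapped, with a difference of -1.60 points (exact permutation p = 0.2). Summed receptor mRNA was 21.9 ± 1.12 FPKM in CRLM1-OE, below 27.2 ± 0.748 in Ctrl and 25.7 ± 1.07 in CRLM1-anti. The higher share went together with a lower NR1H2 level in CRLM1-OE, and NR1H3 stayed the minor receptor in all 9 samples.

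**Figure D3:**
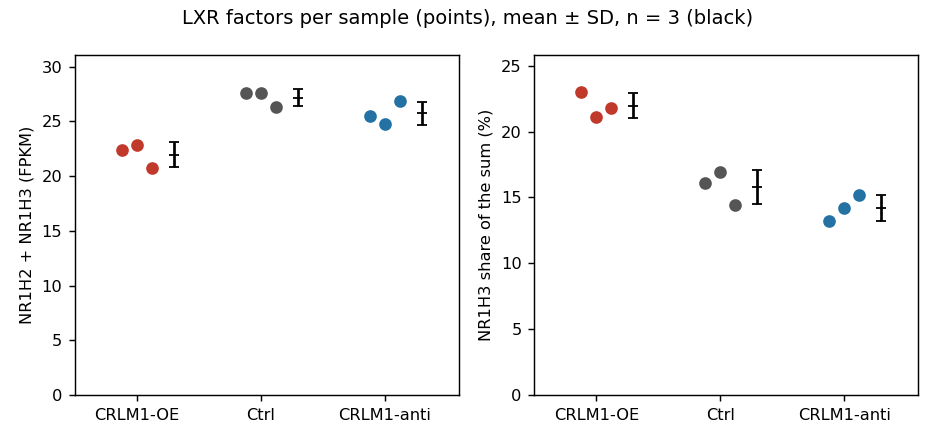
Summed FPKM of NR1H2 and NR1H3 (left) and the NR1H3 percentage of that sum (right) per sample, with the mean and SD (black, n = 3). The 3 CRLM1-OE samples lie below all 6 control samples in the sum, and above all 6 in the share (21.1% or more against 16.9% or less).

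The efflux transporters gave the lowest values. ABCA1, which hands cholesterol to lipid-poor apolipoprotein A-I, had 63, 55 and 50 counts in CRLM1-OE, 65, 68 and 56 in Ctrl, and 101, 87 and 68 in CRLM1-anti. These correspond to 0.1 to 0.13 FPKM in CRLM1-OE, 0.12 to 0.15 in Ctrl and 0.15 to 0.2 in CRLM1-anti. Against Ctrl the log2 fold change was -0.28 (SE 0.19, edgeR adjusted p = 0.32), with an interval of -0.66 to 0.10. Against CRLM1-anti ABCA1 fell by 0.67 on the log2 scale (SE 0.18, edgeR adjusted p = 0.00088), and the groups did not overlap. That fall passed under 12 of 14 alternatives, the exceptions being limma on log2(FPKM + 0.1) (-0.35, adjusted p = 0.19) and on log2(FPKM + 1) (-0.075, adjusted p = 0.073), and FPKM at this level carries only 2 decimals. CRLM1-anti against Ctrl gave 0.36 (SE 0.18, edgeR adjusted p = 0.14), which passed only with total counts (0.47, adjusted p = 0.033).

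ABCG1, which passes cholesterol to HDL, had 145, 144 and 146 counts in CRLM1-OE, 146, 132 and 104 in Ctrl, and 155, 144 and 118 in CRLM1-anti. The FPKM values were 0.66, 0.83 and 0.73 in CRLM1-OE, 0.64, 0.71 and 0.58 in Ctrl, and 0.75, 0.74 and 0.65 in CRLM1-anti, and all groups overlapped. The log2 fold change was 0.085 against Ctrl (95% interval -0.17 to 0.34, edgeR adjusted p = 0.67) and 0.0033 against CRLM1-anti (-0.25 to 0.26, edgeR adjusted p = 0.99).

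MYLIP, the ligase that marks lipoprotein receptors for degradation, had 3.11, 3.17 and 3.01 FPKM in CRLM1-OE. Ctrl samples had 1.87, 1.72 and 1.77 FPKM, and CRLM1-anti samples had 2.29, 2.56 and 2.06. The 3 groups did not overlap with each other, with Ctrl lowest, CRLM1-anti between and CRLM1-OE highest. MYLIP rose 1.60-fold against Ctrl (log2 fold change 0.68, SE 0.091, edgeR adjusted p = 1.4e-12) and 1.30-fold against CRLM1-anti (0.38, SE 0.086, edgeR adjusted p = 4.6e-05). Both passed under all 14 alternatives, and against Ctrl these gave log2 fold changes of 0.56 to 0.82. The antisense control was itself above Ctrl, by a log2 fold change of 0.27 (SE 0.097, edgeR adjusted p = 0.023). That call was lost without Ctrl replicate 2 (0.26, adjusted p = 0.070), without CRLM1-anti replicate 2 (0.19, adjusted p = 0.27) and with DESeq2 (adjusted p = 0.073).

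APOE, the secreted lipid carrier, had 3.66, 3.25 and 3.2 FPKM in CRLM1-OE, 2.13, 1.87 and 2.08 in Ctrl, and 1.62, 1.69 and 2.08 in CRLM1-anti. All CRLM1-OE samples exceeded all 6 control samples, and the controls overlapped. APOE rose 1.54-fold against Ctrl (log2 fold change 0.62, SE 0.13, edgeR adjusted p = 1.4e-05) and 1.83-fold against CRLM1-anti (0.87, SE 0.13, edgeR adjusted p = 6.4e-10), under all 14 alternatives in both cases. CRLM1-anti against Ctrl gave -0.27 (SE 0.15, edgeR adjusted p = 0.23), which passed under none. The counts behind these values were modest, at 149 to 212 in CRLM1-OE and 87 to 128 in the controls. Summed macrophage markers, a cell type rich in APOE, ran from 2.17 to 2.58 FPKM in CRLM1-OE, 1.89 to 1.94 in Ctrl and 1.47 to 1.71 in CRLM1-anti. Of the 9 in the list 8 were in the table and only CD68, which epithelial lines also express, reached 1 FPKM. Summed fibroblast markers ran from 2.07 to 2.50 FPKM in CRLM1-OE, 1.19 to 1.28 in Ctrl and 1.27 to 1.42 in CRLM1-anti (4 of 7 in the table, COL1A1 alone above 1). Summed hepatocyte markers ran the other way, from 1.95 to 2.02 FPKM in CRLM1-OE, 3.67 to 4.05 in Ctrl and 3.77 to 4.10 in CRLM1-anti, with 1 of 6 reaching 1 FPKM. The part of these markers in the APOE difference was not tested.

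**Figure D4:**
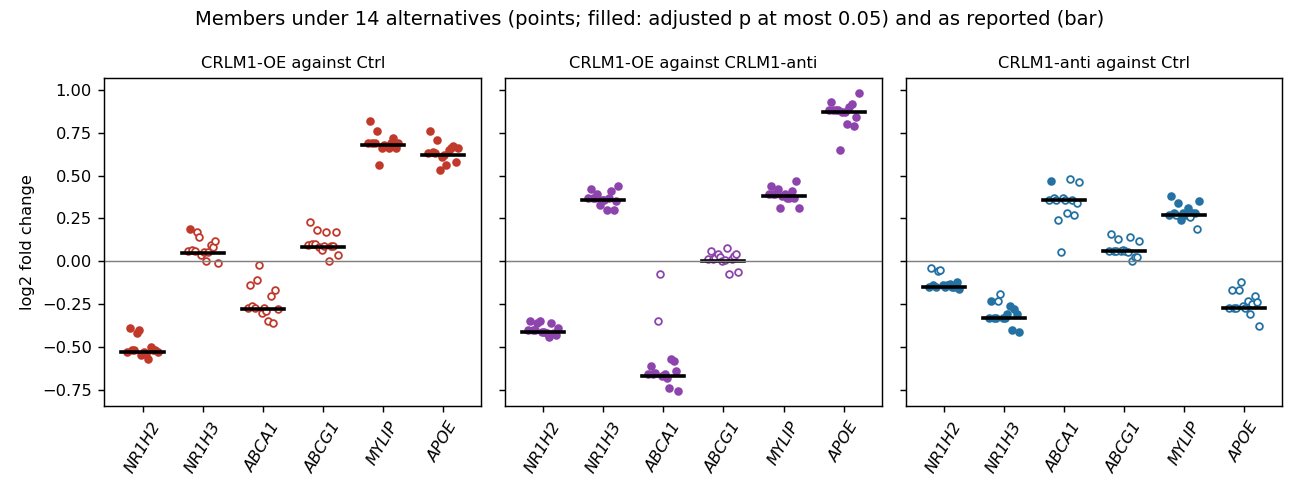
Log2 fold change of each member as reported (black bar) and under 14 alternatives of scaling, filter, tool, model and left-out sample (points, filled at an adjusted p of at most 0.05), 1 panel per comparison. NR1H2, MYLIP and APOE stay filled on 1 side of 0 in both CRLM1-OE comparisons, while ABCG1 is open throughout.

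The members' patterns over the 9 samples were also set side by side. Described as Pearson correlations of log2 CPM, with no p because the 9 points are 3 groups of 3, NR1H2 ran against MYLIP (r = -0.944) and APOE (r = -0.809), and NR1H2 with NR1H3 gave r = -0.292. ABCA1 ran against APOE (r = -0.894), and NR1H3 ran with APOE (r = 0.716), against ABCA1 (r = -0.716) and with MYLIP gave r = 0.112. MYLIP and APOE gave r = 0.654.

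Among 11701 other genes averaging 100 counts or more, NR1H2 was most like GPS2 (r = 0.994), a subunit of the corepressor complex that LXRs can recruit, followed by the chromatin remodelling subunit SMARCB1 (0.993) and NUBP1 (0.992). APOE was most like the transcription factor TFAP2C (0.987), LCAT (0.987), which esterifies cholesterol on HDL, and SC5D (0.984), an enzyme of cholesterol synthesis. For MYLIP the nearest were NOD2 (0.991), FAM160A2 (0.988) and ATXN1L (0.985), and for NR1H3 they were TBC1D23 (0.965), PIGT (0.960) and FAM172A (0.953). ABCA1 was nearest to SREK1 (0.978), BTN3A2 (0.962) and the interferon gamma receptor chain IFNGR1 (0.954), among 11702 genes. ABCG1 had the weakest nearest genes: C2CD5 (0.911), BICD2 (0.866) and TCEANC2 (0.831).

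The rest of the pathway was read from 8 lists, whose counts were not tested as sets. Over all genes tested, 15.0% rose and 16.8% fell against Ctrl, and 17.1% rose and 18.5% fell against CRLM1-anti. Between the controls 11.5% were higher and 12.2% lower. A 2-fold change in either direction was passed by 3.41%, 5.65% and 1.06% in these comparisons. The list counts below are to be read beside these shares. Of the partners and coregulators of LXR, 19 of 20 were in the tables, and 7 rose and 9 fell in CRLM1-OE against Ctrl, with no 2-fold change. Their median log2 fold change was 0.071 over the 19 tested and -0.052 over the 18 averaging 30 counts or more. The obligate partners RXRA and RXRB rose by 0.29 (edgeR adjusted p = 4.9e-08) and 0.26 (6.8e-12) on the log2 scale, opposite to NR1H2. PPARGC1B, a coactivator of lipid synthesis, rose by 0.76 (SE 0.066, edgeR adjusted p = 4.1e-29), from 0.857 to 1.56 FPKM, and by 0.66 against CRLM1-anti. The Mediator subunit MED1 fell by 0.47 (edgeR adjusted p = 2.7e-44), and the corepressor subunits NCOR1 (-0.31) and GPS2 (-0.30) fell. Against CRLM1-anti 6 rose and 9 fell (median -0.16), with the coactivator NCOA2 falling (-0.69, edgeR adjusted p = 3.9e-18). Between the controls 7 were higher and 6 lower (median 0.058), with NCOA2 higher by 0.39 and the corepressor deacetylase HDAC3 lower by a log2 fold change of -0.39.

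Enzymes that make or clear oxysterols were measured for 8 of 11 listed genes. Against Ctrl 3 rose and 1 fell, with a median of 0.60, and 0.25 over the 4 genes averaging 30 counts or more. Against CRLM1-anti 4 rose and none fell (median 0.65, and 0.64 over those 4). CYP11A1, which cleaves the cholesterol side chain, rose by 0.49 against Ctrl (SE 0.14, edgeR adjusted p = 0.0028) and by 1.37 against CRLM1-anti (SE 0.16, edgeR adjusted p = 3.3e-16). CYP27A1, which makes an oxysterol ligand, rose by 1.16 against Ctrl (edgeR adjusted p = 0.0013), on only 12 to 33 counts. Between the controls 4 were lower and none higher (median -0.30), among them CYP11A1 (-0.90) and SULT2B1 (-0.31), which sulphates oxysterols. The SULT2B1 call was lost without Ctrl replicate 1 (-0.24, adjusted p = 0.11) or CRLM1-anti replicate 1 (-0.27, adjusted p = 0.055), and with total counts 2 of the 8 genes passed.

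Other LXR targets were listed for 20 genes, of which 18 were in the tables and 16 were tested against Ctrl. Of these 9 rose, beside 15.0% of all genes tested, and none fell, beside 16.8%. The median was 0.47, and none rose by 2-fold. SCD, the fatty acid desaturase, rose by 0.96 (82.3 to 173 FPKM, edgeR adjusted p = 1e-300 or less) and FASN, the fatty acid synthase, by 0.78 (50.3 to 93.5 FPKM, edgeR adjusted p = 1e-300 or less). SREBF1, which encodes SREBP1, rose by 0.54 and MLXIPL, the carbohydrate-response factor ChREBP, by 0.50. SCD, FASN and SREBF1 are targets of SREBPs too. Others that rose were the sterol transporter ABCG4 (0.49), the receptor for dying cells MERTK (0.50), the phospholipid transfer protein PLTP (0.22) and LPCAT3 (0.14), which remodels phospholipids. APOC1, the neighbour of APOE that LXRs control with it, had 3 to 7 counts per sample, at or just above the floor, and log2 fold changes of -0.014 against Ctrl and -0.42 against CRLM1-anti (edgeR adjusted p = 0.99 and 0.64). Against CRLM1-anti 8 of 18 rose and none fell (median 0.15, and 0.49 over the 10 averaging 30 counts or more), 1 of them by 2-fold (SCD, 1.15). Between the controls 1 was higher (SREBF1, 0.37) and 4 were lower (median -0.044).

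The other ABCA and ABCG transporters, relatives of the 2 efflux members, were in the tables for 14 of 15 genes, and ABCG4 is also in the list above. Against Ctrl 4 rose and 1 fell (median 0.29), and with total counts 8 passed. ABCA7 was the clearest, at 3.87 ± 0.0757 FPKM in the Ctrl samples and 7.71 ± 0.265 (SD, n = 3) in CRLM1-OE, a log2 fold change of 0.88 (SE 0.043, edgeR adjusted p = 5.2e-92), and 1.02 against CRLM1-anti. ABCA7 stood above ABCA1 and ABCG1 in FPKM in all groups. The smaller rises were ABCG4 (0.49), ABCA3 (0.34) and ABCA2 (0.22). ABCA12, a lipid carrier of skin, fell against Ctrl (log2 fold change -1.61) and against CRLM1-anti (-2.46, SE 0.27, edgeR adjusted p = 2.1e-19), on 10 to 85 counts. Against CRLM1-anti 5 rose and 1 fell. The median was -0.065 over the 13 tested and 0.29 over the 8 averaging 30 counts or more. Between the controls 3 were higher, ABCA12 (0.83) and ABCG2 (0.41) among them, and 1 lower. The median was 0.13 over the 14 tested and -0.025 over those 8. The other higher gene was ABCA13 (3.32, edgeR adjusted p = 0.031), on only 0 to 5 counts per sample, and it alone passed at 2-fold. The ABCG2 call (edgeR adjusted p = 0.046) was lost without Ctrl replicate 1 or 3 and without CRLM1-anti replicate 1 or 3, with adjusted p of 0.095 to 0.16, and 2 listed genes in place of 4 passed without Ctrl replicate 1 or 2 or any 1 CRLM1-anti sample.

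Of 21 apolipoproteins other than APOE 17 were in the tables, and 16 were tested against Ctrl, but only 5 averaged 30 counts or more. None passed as higher, beside 15.0% of all genes, and 5 fell, beside 16.8%. The median was -0.076 over the 16 and -0.29 over the 5. Genes near the floor gave fold changes of either sign that did not pass. Those that fell by the largest amounts were of the APOL family, best known from innate defence. APOL6 fell by 1.34 (SE 0.098, edgeR adjusted p = 2.2e-41), from 0.91 to 0.39 FPKM, and also fell against CRLM1-anti (-1.90), and APOL2 fell by 0.29 (edgeR adjusted p = 0.014). APOL1 and APOL3, with fewer than 30 counts on average, fell too (-1.30 and -0.86). The APOL2 call was lost with total counts (-0.15, adjusted p = 0.3), without CRLM1-OE replicate 1 (-0.26, adjusted p = 0.067), with DESeq2 (adjusted p = 0.052) and with limma on FPKM (0.068 with 0.1 added, 0.078 with 1 added). The listed genes that passed numbered 2 with total counts, 3 without that replicate, 3 with DESeq2, and 1 and 2 with limma on FPKM with 0.1 and 1 added. APOL1 fell by 2.28 against CRLM1-anti (SE 0.26, edgeR adjusted p = 7.1e-18). Against CRLM1-anti 4 fell and none rose (median -0.048, and -0.56 over the 6 averaging 30 counts or more). Between the controls 3 were higher and none lower (median 0.0054, and 0.26 over those 6), with APOL1 at 0.96 and APOL6 at 0.53.

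The genes around MYLIP were its receptor substrates, their partners and the ubiquitin enzymes it uses, 10 of 11 in the tables. LRP8, a substrate receptor, rose with MYLIP, by 0.69 against Ctrl (SE 0.063, edgeR adjusted p = 1.2e-26) and by 0.21 against CRLM1-anti (SE 0.057, edgeR adjusted p = 0.001), and had 2.68 ± 0.147 FPKM in CRLM1-OE, 1.54 ± 0.0404 in Ctrl and 2.25 ± 0.0954 in CRLM1-anti (SD, n = 3). In all 4 rose and 3 fell against Ctrl (median 0.083), and 5 rose and 2 fell against CRLM1-anti (median 0.11), with the deubiquitinase USP8 falling in both (-0.43 and -0.66). Between the controls 2 were higher and 5 lower (median -0.081), LRP8 (0.46) and USP2 (-0.38), another deubiquitinase, being the furthest from 0.

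Storage and trafficking of cholesterol, all 21 genes in the tables, gave 8 that rose and 7 that fell against Ctrl (median 0.053), and 12 and 6 against CRLM1-anti (median 0.15). STARD4, a carrier of sterol between membranes, rose by 1.45 (SE 0.057, edgeR adjusted p = 2.8e-139) and 1.56. LCAT, the gene like APOE above, rose by 1.05 (SE 0.11, edgeR adjusted p = 3.4e-20), from 2.03 to 4.57 FPKM, and by 1.56 against CRLM1-anti. NPC1, which moves cholesterol out of lysosomes, rose by 0.58 and 0.84, and STARD5, another sterol carrier, by 1.16 against CRLM1-anti. The HDL receptor SCARB1 fell in both (-0.27 and -0.39), and so did the esterifying enzyme SOAT1 (-0.28 and -0.32). Further from 0 than these were NCEH1, which rose in both (0.83 and 0.78), and CAV1, which fell in both (-0.58 and -0.63). Between the controls 2 were higher and 9 lower (median -0.09), with LCAT at -0.54 and the sterol carrier GRAMD1C at -0.52, a call lost without Ctrl replicate 1 (-0.41, adjusted p = 0.054).

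The SREBP2 branch, the arm opposed to LXR, had all 12 genes in the tables. Against Ctrl 8 rose, 6 of them by 2-fold, and 2 fell (median 0.83), and against CRLM1-anti 8 rose, 7 by 2-fold, and 2 fell (median 1.15). INSIG1, the sterol-sensitive anchor of SREBPs, rose by 2.62 and 3.70, and IDI1, HMGCS1, SQLE, FDFT1 and LSS, enzymes of cholesterol synthesis, rose by 1.71, 1.57, 1.40, 1.27 and 1.01 against Ctrl. SREBF2 itself rose by 0.65 and 1.27. Between the controls 2 were higher and 6 lower (median -0.13), among them INSIG1 (-1.11) and SREBF2 (-0.64). Among the 6 members the log2 fold change furthest from 0 in the CRLM1-OE comparisons was 0.87, that of APOE against CRLM1-anti.

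**Figure D5:**
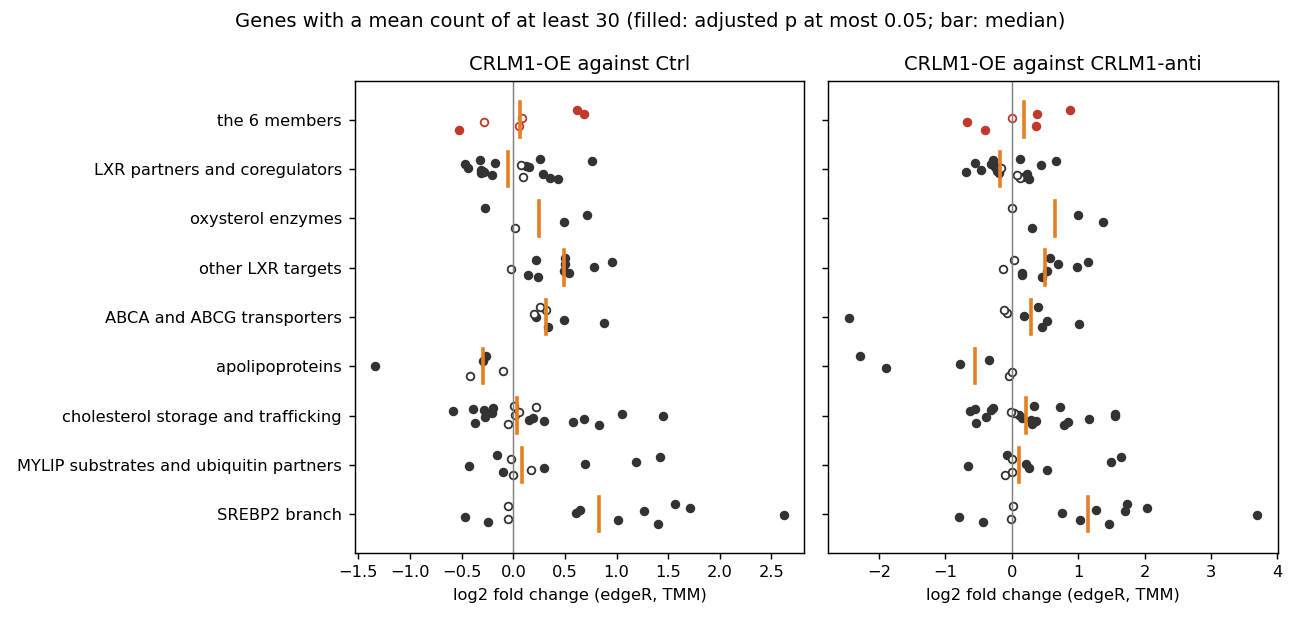
Log2 fold change (edgeR with TMM) of each listed gene averaging 30 counts or more, filled at an adjusted p of at most 0.05, with an orange bar at the median of the genes drawn, for CRLM1-OE against Ctrl (left) and against CRLM1-anti (right). The members spread on both sides of 0, and the SREBP2 branch lies furthest to the right, with medians of 0.83 and 1.15.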

How the data were processed

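RNA from 9 HCT116 samples, 3 per group as the labels give them, was sequenced by the authors as 151 nt pairs from polyadenylated RNA (KAPA RNA HyperPrep). Per the methods they trimmed reads with FASTX, dropped those under 16 nt, and used TopHat2 with up to 4 mismatches on GRCh38 and Gencode version 23. The deposited counts are uniquely mapped reads per gene, not normalized, and the deposited FPKM values are scaled for exon length and library and written to 2 decimals. The criterion for listing a gene, and whether strand was used or pairs were counted once, are not given in the sources used here. The FPKM table lists 31268 genes, 290 fewer than the count table.

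Counts were tested with edgeR 4.0.16 in R 4.3.3 (TMM, glmQLFit, glmQLFTest) on the 6 samples of each comparison, for genes with at least 1 count, with Benjamini-Hochberg adjustment over all of them. FPKM served for levels between genes and for the receptor share, which was tested by exact permutation. Correlations used log2 CPM with a prior count of 2. Adjusted p below 1e-300 is written as 1e-300. Reads carry no molecular identifiers, so the floor of 3 counts covers counting error only. How the replicate cultures were kept apart was not stated, so p-values refer to these samples only. The edgeR p-values are not a measure of each gene's own spread alone, and their size depended on the test, as given for NR1H2.

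Alternatives were RLE factors, total counts, filterByExpr, DESeq2 1.42.0 (Wald test), limma 3.58.1 on log2(FPKM + 0.1) and log2(FPKM + 1), all 9 samples in one fit, the replicate number as a block, and each sample left out. The tests were tried on simulated data with planted changes.

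The members and the 8 lists were chosen with earlier results of these data known. Genes were named by rule: in each list and comparison among genes that passed and averaged 30 counts or more, those at 2-fold and the 2 with the largest fold change, and per member the 3 genes with the highest correlation. Some listed genes stay in the counts and medians but are not reported here by name. RXRA, RXRB, NCOR1, GPS2 as a corepressor, CYP27A1, MLXIPL, MERTK, PLTP, LPCAT3, APOC1 and APOL3 were named after their values were seen. So were ABCA3, ABCA2, ABCA13, USP8, NPC1, SCARB1, SOAT1, NCEH1 and CAV1. The same holds for values of a gene in a comparison where the rule did not choose it. Positions came from GENCODE version 44, promoter windows from RefSeq (GRCh38.p14). Python 3.11.15 with matplotlib 3.10.9 made the figures.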

Additional observations from a re-analysis of the deposited data

How the results depend on the processing

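Of 252 member fold changes recomputed, 236 kept their direction and their side of the threshold, 10 lost the call, 2 gained it and 4 changed sign. The sign changes were in fold changes near 0 that did not pass: leaving out 1 sample at a time, NR1H3 in CRLM1-OE against Ctrl ran from -0.0099 (without Ctrl replicate 3) to 0.12 (without Ctrl replicate 2), and ABCG1 in CRLM1-OE against CRLM1-anti from -0.077 (without CRLM1-OE replicate 2) to 0.079 (without CRLM1-OE replicate 1). The number of members called between the controls was 3 as reported and 1 with limma on FPKM, with 0.1 or with 1 added, and the cause was not tested. The other member counts stayed within 1.5 times, and none was called at 2-fold. Of 812 fold changes of named list genes, 782 kept direction and call and 30 lost the call. Of 336 list counts, 315 stayed within 1.5 times. With limma on FPKM fewer passed between the controls (7 partners and coregulators, 3 other LXR targets, 4 genes around MYLIP, 0 ABCA and ABCG transporters). Alternatives for lists and receptor shares were added after the data were seen. All 9 leave-one-out receptor shares moved by less than 1 SD. With 3 samples per group a move of 1 SD is not possible, so this says nothing about their stability. Samples with the same replicate number gave residual correlations of -0.0749 to 0.0782 over 9 pairs. Those with different numbers gave -0.109 to 0.144 over 18 pairs. Whether samples with the same number were handled together was not tested. With the replicate block 3, 5 and 3 members were called in CRLM1-OE against Ctrl, CRLM1-OE against CRLM1-anti and CRLM1-anti against Ctrl, the same numbers as without it. Counts of 50 to 101 limit ABCA1.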
